A study of Mus musculus with 6 samples.

Results

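Hox genes encode homeodomain transcription factors and lie in 4 clusters, HoxA, HoxB, HoxC and HoxD. The genes described here are those whose name in the deposited counts is Hox, a cluster letter from a to d and a paralog number, which gave 39 of 55809 genes. They fall into 11 HoxA, 10 HoxB, 9 HoxC and 9 HoxD genes, and by paralog number into 12 of numbers 1 to 4, 11 of numbers 5 to 8 and 16 of numbers 9 to 13. The members were set by gene name, but the family was selected on measured values, since its difference between BMP7 and Ctrl, above all that of HoxC, was already known from these libraries. That difference is therefore given as a description and not as a test of the Hox genes.

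Within a cluster the genes are arranged in the order in which they act along the body axis, with low paralog numbers at the anterior end and high numbers at the posterior end, and genes of the same number in different clusters are paralogs that descend from 1 ancestral gene. Hox proteins bind DNA together with Pbx, Meis and Pknox cofactors, and the silent state of a cluster is classically kept by Polycomb complexes and opposed by Trithorax proteins. In the mammary gland, Hox genes of several clusters are known to act in placode formation and in the growth of the gland in pregnancy. BMP7 is a secreted ligand of the bone morphogenetic protein family, which signals through Smad transcription factors.

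RNA was taken from HC11, a line of mouse mammary epithelial cells that the study uses as a luminal line, grown in medium with BMP7 (BMP7, 3 libraries) or in medium without it (Ctrl, 3 libraries). Poly(A) RNA was sequenced. The study's methods describe HC11 cells that were starved and then given BMP7 for minutes or for hours, and which of these times the sequenced RNA came from is not given in the sources used here. The labels do not say whether the 3 libraries of a group are separate cultures, so the p-values measure only the spread between these libraries, which may be technical. The BMP7 libraries are named 1, 3 and 4 as their columns are, and the Ctrl libraries 1, 2 and 3.

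Between 19858701 and 20327200 fragments per library were assigned to genes in Ctrl, and between 14607938 and 23748970 with BMP7, the fewest in BMP7 library 1. Levels are given as CPM, counts scaled to library size by TMM normalization, and levels of different genes are compared only as FPKM, which also divides by the gene's exon length. Of the epithelial markers, *Epcam* was between 460 and 647 CPM and *Cdh1* between 787 and 992 CPM in the 6 libraries. Markers of both epithelial lineages were present and both lineages also had markers near 0. Of the luminal keratin genes, *Krt8* was between 57.9 and 68.9 CPM and *Krt18* between 27.1 and 51.1 CPM, while *Krt19* was at most 0.356 CPM. Of the basal genes, *Krt5* was between 2420 and 2820 CPM, while the contractile genes *Acta2*, *Myh11* and *Cnn1* were at most 0.737, 0.881 and 0.196 CPM. BMP7 libraries 3 and 4 stood apart in genes of other cell types. The summed level of 16 adipocyte markers was 196 and 175 CPM in them, 112 CPM in BMP7 library 1 and between 84.6 and 101 CPM in Ctrl. That of 14 macrophage markers was 28.4 and 27.1 CPM in them, 53.9 CPM in BMP7 library 1 and between 50.8 and 55.1 CPM in Ctrl. Single genes weighed on both sums. The adipocyte marker *Cebpa* was at 21.2 to 25.0 CPM in Ctrl and at 43.1, 46.9 and 43.0 CPM in BMP7 libraries 1, 3 and 4. The macrophage marker *Lyz2* was at 25.5 to 26.6 CPM in Ctrl and at 22.5, 6.76 and 6.94 CPM there. *Cd68* was higher with BMP7, at 12.4 to 15.6 CPM against 10.9 to 11.6 CPM. Of the 9 tested macrophage markers 7 had a negative log2 fold change and 2 a positive one. By edgeR, 10 of 13 tested adipocyte markers were called higher and 2 of 9 tested macrophage markers lower. Of all genes tested, 5.99% were called higher and 5.38% lower. None of these 30 markers was at 0 counts in all libraries. In bulk RNA, fewer cells of a type and less RNA per cell cannot be told apart.

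With BMP7, 13 of the 25 Hox genes with enough counts to be tested were called higher and 0 were called lower by edgeR's quasi-likelihood test (adjusted p under 0.05 and fold change over 1.2), where 942 of all 15733 genes tested (5.99%) were called higher and 846 (5.38%) lower. In 16 of the 25, the lowest BMP7 library lay above the highest Ctrl library, as it did in 14.8% of all genes tested, and in 0 the order was the opposite, against 15.1% of all genes. These shares are the background and were not used to test the Hox genes. At an unadjusted p under 0.05, 16 Hox genes were higher and 0 lower, and DESeq2 called 12 higher and 0 lower. Of the 39 genes, 28 had a count in any library and 11 had 0 counts in all 6. By cluster, 4 of 9 tested HoxA genes, 2 of 9 tested HoxB genes and 7 of 7 tested HoxC genes were called higher, and no HoxD gene could be tested. By paralog number, 4 of 8 tested genes of numbers 1 to 4, 5 of 10 of numbers 5 to 8 and 4 of 7 of numbers 9 to 13 were called higher. Of the 7 HoxC genes tested, *Hoxc13*, *Hoxc10* and *Hoxc8* passed the filter on low counts only through the BMP7 libraries and therefore had to differ. They are part of the counts of called and of non-overlapping Hox genes above. With BMP7 library 1 alone against Ctrl, 8 Hox genes were called higher, of which 2 were HoxA, 1 HoxB and 5 HoxC genes. HoxA kept 2 calls without Ctrl library 1, Ctrl library 2 or BMP7 library 3, and HoxB kept 1 without BMP7 library 3. Of paralog numbers 5 to 8, 2 calls were left without any one of those 3 libraries and 3 without BMP7 library 1.

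**Figure D1:**
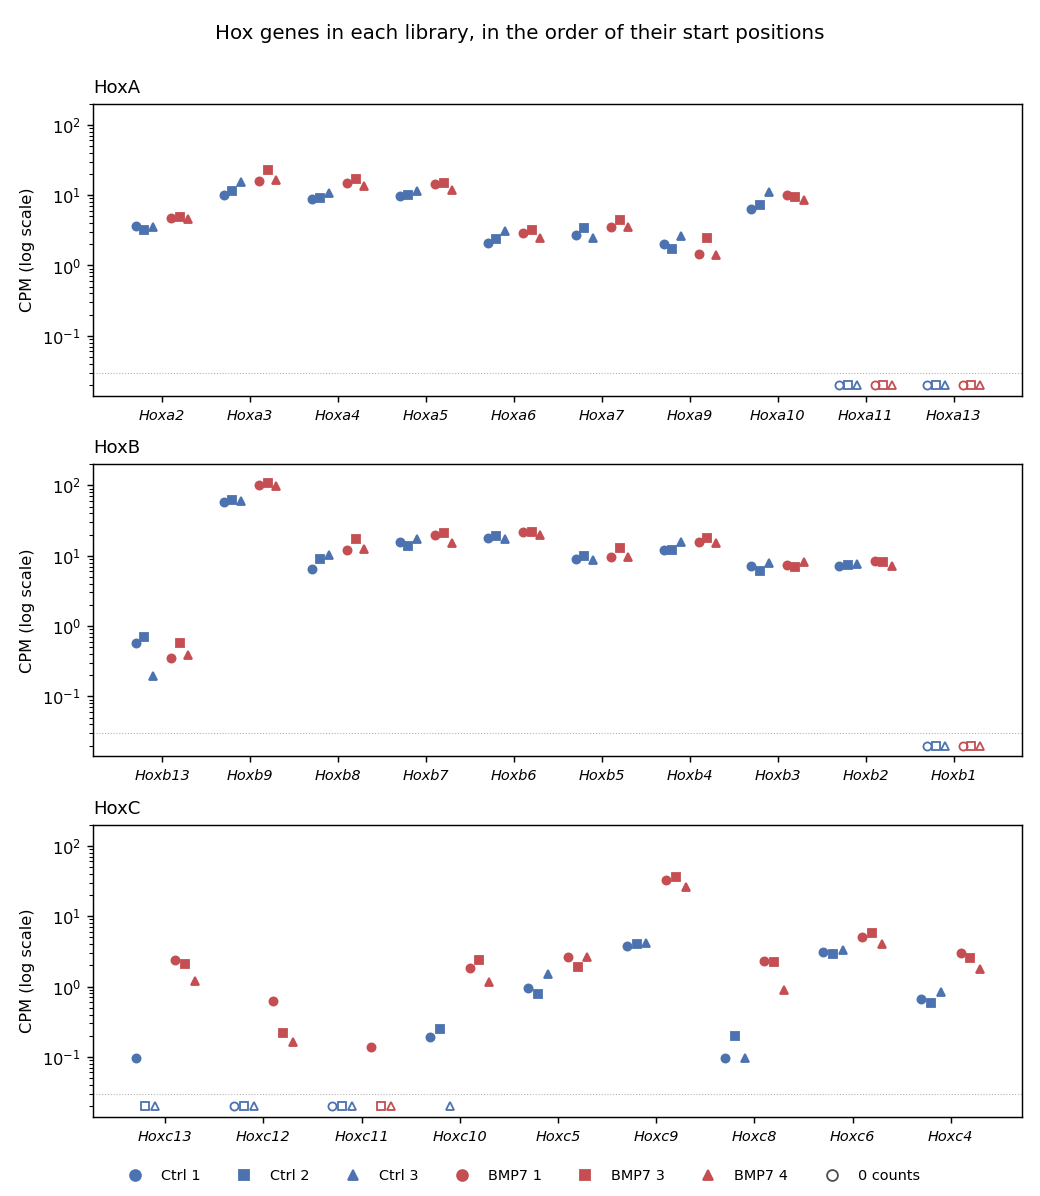
CPM (log scale) of HoxA, HoxB and HoxC genes in the 3 Ctrl libraries (blue) and the 3 BMP7 libraries (red), genes in the order of their start positions. Open symbols below the dotted line are libraries with 0 counts. The 3 BMP7 libraries lie above the 3 Ctrl libraries in each HoxC gene that was tested, and the 2 groups lie far apart in *Hoxc9*. In *Hoxc13*, *Hoxc10* and *Hoxc8* the filter on low counts fixed that order.

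In the mm39 annotation of the counts, HoxC spans 102829538 to 102945278 of chromosome 15, and its 9 genes run on the plus strand from *Hoxc13* to *Hoxc4*. The summed level of the cluster was 8.86, 8.80 and 9.99 CPM in Ctrl libraries 1, 2 and 3, and 50.6, 53.6 and 38.2 CPM in BMP7 libraries 1, 3 and 4. The HoxC sum of BMP7 library 1 lay between those of the other BMP7 libraries. Its adipocyte sum of 112 CPM was above the 84.6 to 101 CPM of Ctrl, and its macrophage sum lay within the Ctrl range. The part of other cell types in the Hox values was not tested.

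*Hoxc9*, which patterns the thoracic spinal cord and ribs, was the HoxC gene with the highest level per length in both groups, at 1.65 FPKM in Ctrl and 13.1 FPKM with BMP7. It was at 3.76, 4.08 and 4.21 CPM in Ctrl and at 32.7, 36.4 and 26.4 CPM in BMP7 libraries 1, 3 and 4. The groups did not overlap, and the log2 fold change was 2.99 with a standard error of 0.13. *Hoxc9* lies from 102884874 to 102893531 and shares no exon base with another gene. Stretches of 101 to 122 bases of its transcript were about 95% identical to transcripts of Chrnb3, Gm10521, Kcnj10 and Unc45a in GENCODE vM21.

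*Hoxc13*, at the posterior end of the cluster, regulates keratin genes of hair and nail. It had 2, 0 and 0 counts in Ctrl and 34, 47 and 22 counts in BMP7 libraries 1, 3 and 4, which is at most 0.0963 CPM in Ctrl and 2.37, 2.09 and 1.21 CPM with BMP7. The ratio of the summed counts, scaled to library size, was 57.6 with a counting interval (95%, counting error only) from 15.6 to 482. Both Ctrl counts were in Ctrl library 1, and the fitted log2 fold change of 5.60 became 8.18 without that library, where the Ctrl group is at 0 and the value is no bound, and 5.10 without Ctrl library 2 or without Ctrl library 3. *Hoxc12*, the next gene, had 0 counts in Ctrl and 9, 5 and 3 counts with BMP7, too few to be tested. Its ratio was 6.34 against a floor of 3 counts over the Ctrl group. That value takes the BMP7 counts as exact and carries no counting interval. *Hoxc11* had 2 counts in all, both in BMP7 library 1, and no fold is given.

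*Hoxc10*, known from lumbar motor neurons and the hindlimb, had 4, 5 and 0 counts in Ctrl and 26, 54 and 21 counts with BMP7. Its ratio was 12.6 (counting interval 6.36 to 28.3), and its log2 fold change was 3.57 with a standard error of 0.56. *Hoxc8*, which acts in the thoracic segments and in the mammary placode, had 2, 4 and 2 counts in Ctrl and 33, 51 and 16 counts with BMP7, or 2.30, 2.27 and 0.881 CPM. Its ratio was 14 (counting interval 6.83 to 33.3) and its log2 fold change 3.74 with a standard error of 0.53. Over the alternative fits the log2 fold change of *Hoxc10* lay between 3.01 (without Ctrl library 3) and 4.37 (with the replicate number as a block), and that of *Hoxc8* between 3.52 (without BMP7 library 3) and 4.47 (with the block). For all of *Hoxc13*, *Hoxc10* and *Hoxc8*, each BMP7 library was above each Ctrl library. That order followed from the filter, which these genes passed only through the BMP7 libraries, and is no support for a difference. The size of the change is imprecise because of the few Ctrl counts.

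The anterior HoxC genes had measurable levels in Ctrl. *Hoxc4*, at the anterior end, was at 0.674, 0.590 and 0.831 CPM in Ctrl and at 3.00, 2.53 and 1.76 CPM with BMP7, a log2 fold change of 1.78 with a standard error of 0.32. *Hoxc5*, which acts with its paralogs in the neck region, was at 0.963, 0.787 and 1.52 CPM in Ctrl and at 2.65, 1.87 and 2.64 CPM with BMP7, a log2 fold change of 1.11 with a standard error of 0.31. *Hoxc6*, a gene of the thoracic region, was at 3.08, 2.90 and 3.33 CPM in Ctrl and at 5.02, 5.78 and 4.02 CPM with BMP7, a log2 fold change of 0.68 with a standard error of 0.19. In these 3 genes the groups did not overlap either. When 10 counts were asked of every library, a filter that does not depend on the BMP7 libraries alone, *Hoxc4*, *Hoxc5*, *Hoxc6* and *Hoxc9* remained, and 4 of 4 were called higher.

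The calls of *Hoxc5* and *Hoxc6* rested on the full set of libraries. *Hoxc5* was no longer called without Ctrl library 1 or 2 or without BMP7 library 1 or 4, with log2 fold changes of 1.03, 0.93, 1.03 and 1.02. *Hoxc6* was no longer called without Ctrl library 1 or 2 or BMP7 library 3, with log2 fold changes of 0.67, 0.63 and 0.54. In the annotation, the gene model of *Hoxc5* begins inside *Hoxc10* and shares 166 exon bases with it, and fragments that fit both were counted for neither. The start position of *Hoxc5* is therefore that of a long model and not that of its place between *Hoxc6* and *Hoxc4*.

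HoxA lies on chromosome 6, on the minus strand, so that anterior genes have the lower coordinates. The genes called higher included *Hoxa3*, *Hoxa4* and *Hoxa5*. Over the 9 genes tested the median log2 fold change was 0.43, where that of all genes tested was -0.01.

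*Hoxa4*, a gene of the neck vertebrae, was at 8.81, 9.14 and 10.9 CPM in Ctrl and at 15.1, 16.7 and 13.4 CPM with BMP7, a log2 fold change of 0.65 with a standard error of 0.12. The groups did not overlap. The gene was called under every alternative fit tried at these thresholds, with log2 fold changes from 0.57 to 0.75, but not when a fold change of 2 was asked for, which left 0 HoxA calls. *Hoxa4* had the highest level per length of the cluster, 6.03 ± 0.688 FPKM in Ctrl and 9.44 ± 1.01 FPKM with BMP7 (SD, n = 3 libraries each).

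*Hoxa3*, needed for the thymus and parathyroid, was at 9.92, 11.6 and 15.3 CPM in Ctrl and at 15.9, 22.5 and 16.6 CPM with BMP7, a log2 fold change of 0.59 with a standard error of 0.16. The groups came close, at 15.3 CPM in Ctrl library 3 and 15.9 CPM in BMP7 library 1. *Hoxa3* shares 27.1% of its exon length with other genes, most of it antisense, and fragments that fit several genes were counted for none. *Hoxa5*, which acts in the lung and the neck and shoulder region, was at 9.63, 10 and 11.3 CPM in Ctrl and at 14.2, 14.7 and 11.7 CPM with BMP7, a log2 fold change of 0.39 with a standard error of 0.12. *Hoxa5* was the Hox gene just inside the threshold, with an adjusted p of 0.042 (edgeR, Benjamini-Hochberg), and *Hoxa2* the one just outside it, with 0.11. Without Ctrl library 1 or 2 or BMP7 library 3, neither *Hoxa3* nor *Hoxa5* was called (log2 fold changes of 0.46, 0.55 and 0.41 for *Hoxa3* and of 0.35, 0.37 and 0.33 for *Hoxa5*). *Hoxa5* was also not called with DESeq2 (0.40), with upper-quartile scaling (0.37) or without BMP7 library 1 (0.36).

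In *Hoxa2* and *Hoxa7* the groups did not overlap but the genes were not called. *Hoxa2*, which patterns the pharyngeal arches, was at 3.66, 3.24 and 3.57 CPM in Ctrl and at 4.74, 4.93 and 4.52 CPM with BMP7 (log2 fold change 0.44, standard error 0.17). *Hoxa7*, a gene of the trunk, was at 2.74, 3.44 and 2.49 CPM in Ctrl and at 3.55, 4.49 and 3.58 CPM with BMP7 (log2 fold change 0.43, standard error 0.21). *Hoxa6*, *Hoxa9* and *Hoxa10* overlapped between the groups, with log2 fold changes of 0.17, -0.20 and 0.18 and Ctrl means of 2.54, 2.11 and 8.24 CPM. *Hoxa9* acts in blood stem cells and, with its paralogs, in the mammary gland in pregnancy, and *Hoxa10* acts in the uterus. *Hoxa11* and *Hoxa13*, genes of the limb and the genital tract, had 0 counts in all 6 libraries. The 2 tested HoxA genes of numbers 9 to 13 were thus not called.

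HoxB lies on chromosome 11 from 96085142 to 96259082, on the plus strand, from *Hoxb13* to *Hoxb1*. *Hoxb9*, which acts with its paralogs of number 9 in the growth of the mammary gland in pregnancy, was the Hox gene with the highest level per length in both groups. It was at 58.2, 62.2 and 60.8 CPM in Ctrl and at 101, 109 and 97.7 CPM with BMP7, a log2 fold change of 0.77 with a standard error of 0.07. Per length it was at 23.5 ± 0.783 FPKM in Ctrl and 39.9 ± 2.33 FPKM with BMP7 (SD, n = 3 libraries each). The BMP7 libraries were all far above the Ctrl libraries. The gene was called under every alternative fit tried at these thresholds, with log2 fold changes from 0.72 to 0.82, but not when a fold change of 2 was asked for, which left 0 HoxB calls.

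*Hoxb8*, which acts in the spinal cord and in myeloid progenitors, was at 6.40, 9.0 and 10.2 CPM in Ctrl and at 12, 17.5 and 12.6 CPM with BMP7, a log2 fold change of 0.73 with a standard error of 0.17. It was not called without BMP7 library 3, where the log2 fold change was 0.53. *Hoxb6*, a gene of the trunk, was at 18.1, 19.2 and 17.0 CPM in Ctrl and at 22, 21.4 and 19.9 CPM with BMP7. Its groups did not overlap, and its log2 fold change of 0.22 (standard error 0.09) was not called. Over the 9 HoxB genes tested the median log2 fold change was 0.22.

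The remaining HoxB genes overlapped between the groups. *Hoxb7*, the neighbour of *Hoxb8*, had a log2 fold change of 0.26 and, among the fits tried, was called only without BMP7 library 4 (0.38), and *Hoxb4*, known for the expansion of blood stem cells, had one of 0.30 and was called only without Ctrl library 3 (0.43). *Hoxb5*, *Hoxb3* and *Hoxb2* had log2 fold changes of 0.20, 0.09 and 0.07, where *Hoxb3* and *Hoxb2* share 53.1% and 27.3% of their exon length with the antisense gene *Hoxb3os*. *Hoxb13*, which lies apart from the others at the posterior end and is known from the prostate, had between 4 and 14 counts in every library and a log2 fold change of -0.12 with a standard error of 0.51, whose sign changed with the libraries used. *Hoxb1*, a hindbrain gene at the anterior end, had 0 counts in all 6 libraries.

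HoxD lies on chromosome 2 from 74498654 to 74595486. Of *Hoxd13*, *Hoxd12*, *Hoxd11*, *Hoxd10*, *Hoxd9*, *Hoxd8*, *Hoxd4*, *Hoxd3* and *Hoxd1*, only *Hoxd13* had any count, a single one in Ctrl library 2. A count of 0 allows up to 3 counts, which is between 0.133 and 0.209 CPM in these libraries. Fragments that fit several genes were not counted, and *Hoxd3* and *Hoxd4* share 62.8% and 52.3% of their exon length with other genes and with each other.

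**Figure D2:**
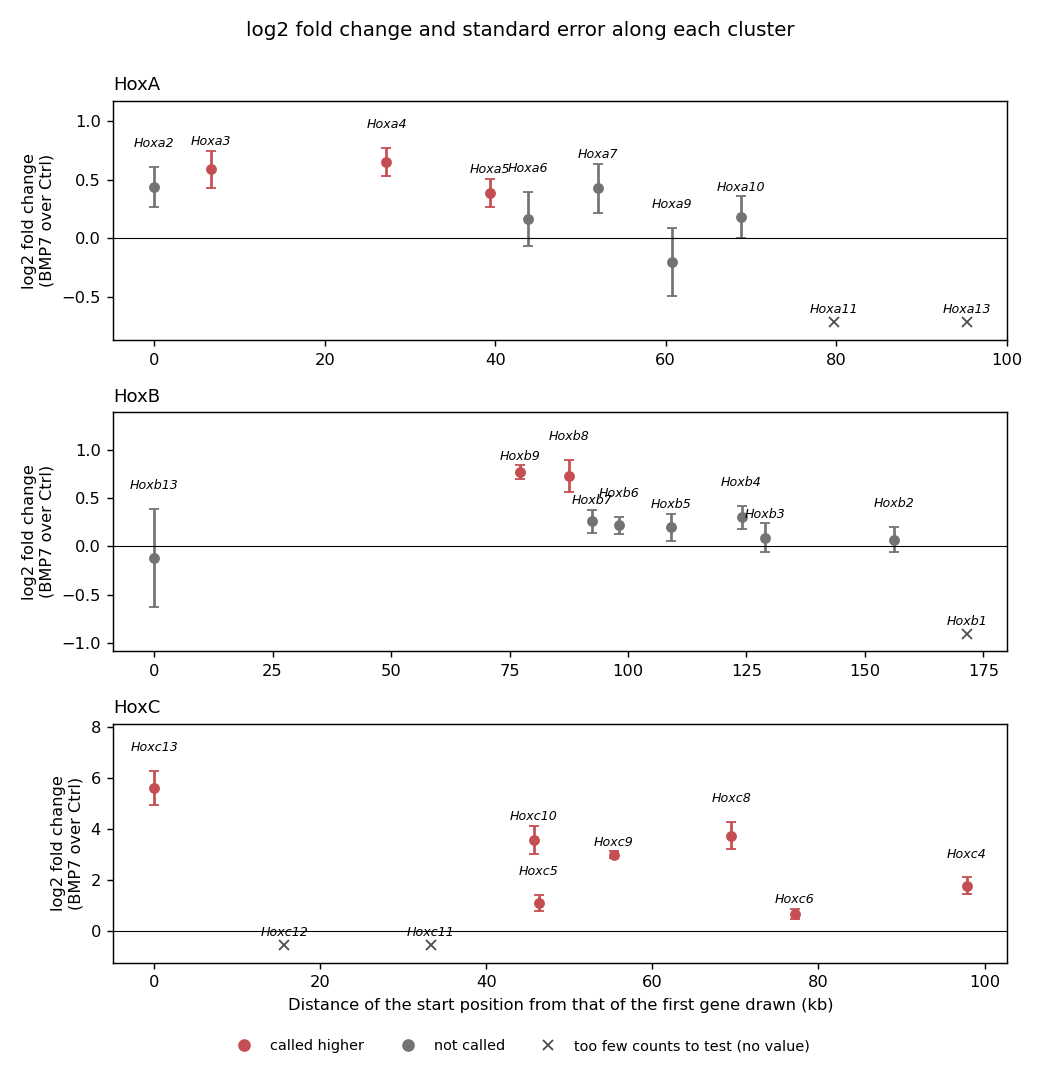
log2 fold change of BMP7 over Ctrl (points, bars are standard errors) against the distance of each gene's start position from that of the first gene drawn in its cluster (kb). Red points were called higher, grey points were not, and crosses mark genes with too few counts to test. The HoxA calls drawn are *Hoxa3*, *Hoxa4* and *Hoxa5*, the HoxB calls are at *Hoxb9* and *Hoxb8*, and the HoxC panel reaches 5.60 at *Hoxc13*.

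The rank correlation of the log2 fold change with paralog number was -0.82 over the 9 tested HoxA genes and 0.30 over 9 HoxB genes. These are descriptions over neighbouring genes that share the same 6 libraries, and no value is given for HoxC, where 3 of the 7 tested genes passed the filter only through the BMP7 libraries. In HoxA, *Hoxa2*, *Hoxa3* and *Hoxa4* had log2 fold changes of 0.44, 0.59 and 0.65 and the tested genes of numbers 9 to 13 -0.20 and 0.18. In HoxC, *Hoxc9* had a log2 fold change of 2.99, and *Hoxc4*, *Hoxc5* and *Hoxc6* had values of 1.78, 1.11 and 0.68.

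The share of each cluster in all Hox counts is independent of the scaling between libraries. HoxC held 4.52%, 4.29% and 4.47% of the Hox counts of Ctrl libraries 1, 2 and 3, with 95% Wilson intervals, which cover counting error only, within 3.71% to 5.20%. It held 15.5%, 14.8% and 12.8% in BMP7 libraries 1, 3 and 4, with intervals within 12% to 16.5%. HoxB held 65% to 68.5% in Ctrl and 59.7% to 62.3% with BMP7, and HoxA held 27.1% to 30.5% in Ctrl and 24.6% to 25.5% with BMP7. The summed levels of HoxA and HoxB were nevertheless higher with BMP7 in every library, from 74.0 to 92.0 CPM against 53.1 to 68.3 CPM in HoxA, and from 186 to 215 CPM against 134 to 145 CPM in HoxB. Single genes weighed on these sums. *Hoxb9* was at 97.7 to 109 CPM against 58.2 to 62.2 CPM, and 7 of the 9 tested HoxB genes were not called. *Hoxc9* held 469 of 726, 818 of 1204 and 480 of 695 HoxC counts in BMP7 libraries 1, 3 and 4. In Ctrl it held 78 of 184, 83 of 179 and 86 of 204.

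**Figure D3:**
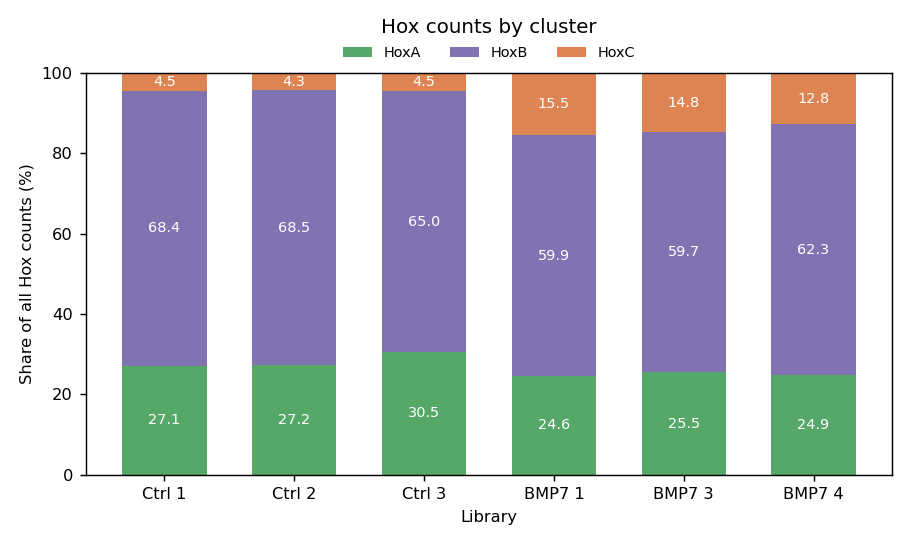
Share (%) of all Hox counts held by HoxA, HoxB and HoxC in each library, as stacked bars from 0 to 100. The HoxC segment is between 4.29% and 4.52% in the Ctrl libraries and between 12.8% and 15.5% in the BMP7 libraries.

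Per exon length, *Hoxb9* stood alone at the top in both groups. In Ctrl, *Hoxb7* (10.1 FPKM) and *Hoxb6* (9.21 FPKM) followed and overlapped each other, and *Hoxa4*, *Hoxa5* and *Hoxb4* came next between 5.14 and 6.03 FPKM and overlapped in turn. The highest HoxC gene of Ctrl, *Hoxc9*, was the 15th of the 39 genes at 1.65 ± 0.0954 FPKM and overlapped *Hoxb3* (1.64 FPKM). With BMP7, *Hoxc9* was the 2nd at 13.1 ± 2.06 FPKM (SD, n = 3 libraries each), between 10.9 and 15.0 FPKM, and overlapped *Hoxb7* (12 FPKM) but not *Hoxb9*. The other HoxC genes stayed between 0.023 FPKM (*Hoxc11*) and 2.05 FPKM (*Hoxc6*) with BMP7.

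Side by side with their paralogs, *Hoxc9*, *Hoxc4* and *Hoxc6* took a larger part of the level per length of their paralog number in each BMP7 library than in any Ctrl library. Among the number 9 genes, *Hoxc9* held 6.30%, 6.42% and 6.70% in Ctrl and 25.4%, 25.8% and 22.2% with BMP7, while *Hoxb9* held 91.5% to 92.4% and then 73.4% to 77.3%, and *Hoxa9* at most 1.80%. Among the number 8 genes, *Hoxc8* held at most 1.99% in Ctrl and 15.1%, 10.7% and 6.10% with BMP7, the rest being *Hoxb8*. Among the number 10 genes, *Hoxc10* held at most 5.58% in Ctrl and 23.4%, 30.7% and 18.8% with BMP7, the rest being *Hoxa10*. *Hoxc8* and *Hoxc10* passed the filter only through the BMP7 libraries, so their larger shares with BMP7 are no support for a difference. Among the number 4 genes, *Hoxc4* held 2.14% to 2.51% in Ctrl and 4.57% to 6.98% with BMP7, and *Hoxa4* was the highest in both groups. For number 6 the HoxC share was between 8.78% and 10.2% in Ctrl and between 11.4% and 14.1% with BMP7. That for number 5 was at most 8.13% with BMP7. For number 5 the groups overlapped, with 5.09% in Ctrl library 3 and 4.66% in BMP7 library 3.

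**Figure D4:**
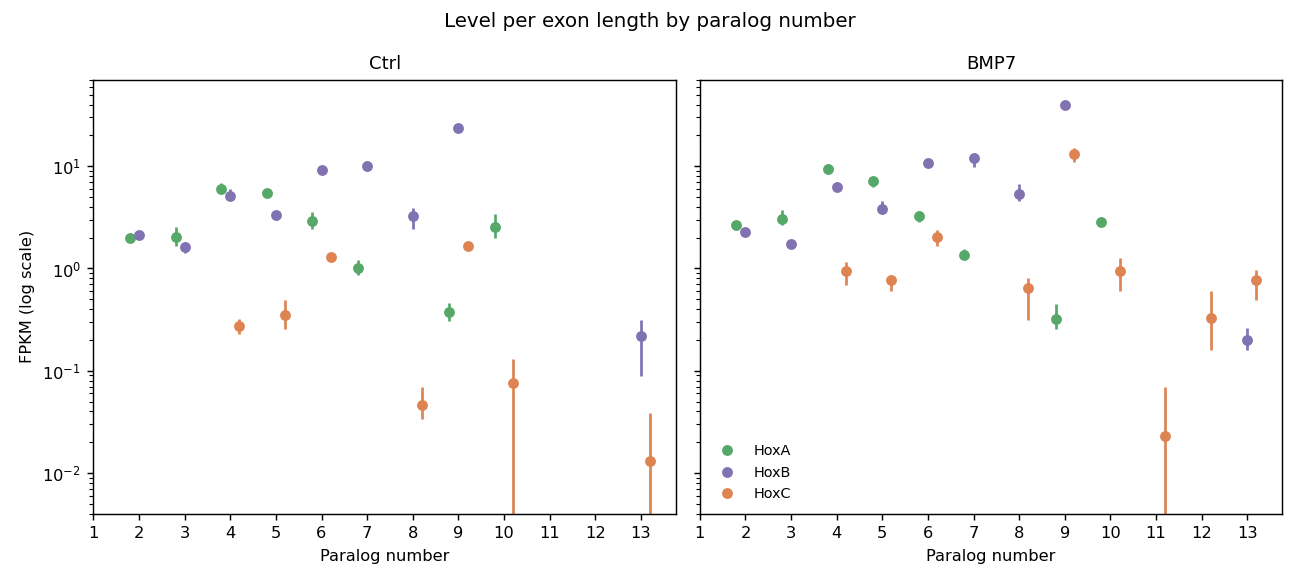
Level per exon length (FPKM, log scale) against paralog number in Ctrl (left) and BMP7 (right). Points are means of 3 libraries, lines run from the lowest to the highest library, lines that reach the lower edge include libraries at 0, and genes at 0 in all libraries of a group are not drawn. HoxC (orange) lies below HoxB (purple) at numbers 4, 5, 6, 8 and 9 in both groups, and *Hoxc9* moves from 1.65 to 13.1 FPKM.

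The surroundings of the clusters were compared in the same way. Of all genes tested, 5.99% were called higher. Genes other than Hox genes that lie between the outermost Hox genes of a cluster numbered 20 in HoxA, 10 in HoxB, 7 in HoxC and 10 in HoxD. In HoxA, 6 of them were tested and 1, *Gm15050*, was called higher, from 2.26, 2.36 and 1.96 CPM in Ctrl to 4.60, 3.29 and 3.08 CPM with BMP7 (log2 fold change 0.72, standard error 0.23). In HoxB, 6 were tested and 1, *Gm53*, which lies between *Hoxb13* and *Hoxb9*, was called higher, from 65.7, 61.6 and 56.7 CPM to 77.1, 84.7 and 87.1 CPM (log2 fold change 0.44, standard error 0.07). In HoxC, *Hotair*, *Mir196a-2*, *Mir615* and the other 4 had at most 1 count in a library and none was tested.

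Of 17 noncoding RNA genes of the clusters that the counts list, 6 were tested and 0 were called by edgeR or DESeq2, with 1 at an unadjusted p under 0.05. *Hotairm1*, in HoxA, was at 3.23, 4.57 and 3.42 CPM in Ctrl and 4.53, 4.76 and 6.06 CPM with BMP7, which overlapped. *Hottip*, *Hoxa11os* and *Haglr* had 0 counts in all libraries.

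Within 500 kb on either side of the clusters, 4 genes at HoxA, 12 at HoxB and 5 at HoxD were tested and 0 were called by edgeR or DESeq2, with median log2 fold changes of 0.0, -0.04 and 0.07 and with 0, 0 and 1 genes at an unadjusted p under 0.05. At HoxC, 2 of 19 were called higher, where 5.99% of all genes tested were. *Gm36560*, whose nearest end lies 101559 bases from *Hoxc13*, was at a mean of 0.260 CPM in Ctrl and 1.06 CPM with BMP7 (log2 fold change 2.01, edgeR adjusted p = 0.0139). *Zfp385a*, 277044 bases beyond *Hoxc4*, was at 55, 63.1 and 62.1 CPM in Ctrl and at 101, 102 and 79.4 CPM with BMP7 (log2 fold change 0.64, standard error 0.09). The other genes there, among them *Calcoco1*, *Smug1* and *Cbx5*, were not called, and the median over the 19 was 0.03. At an unadjusted p under 0.05, 6 of the 19 were higher, the 2 called genes among them, and 2 were lower. *Prr13* (log2 fold change 0.25, edgeR adjusted p = 0.0172) and *Copz1* (0.22, edgeR adjusted p = 0.0168) missed only the fold-change threshold.

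**Figure D5:**
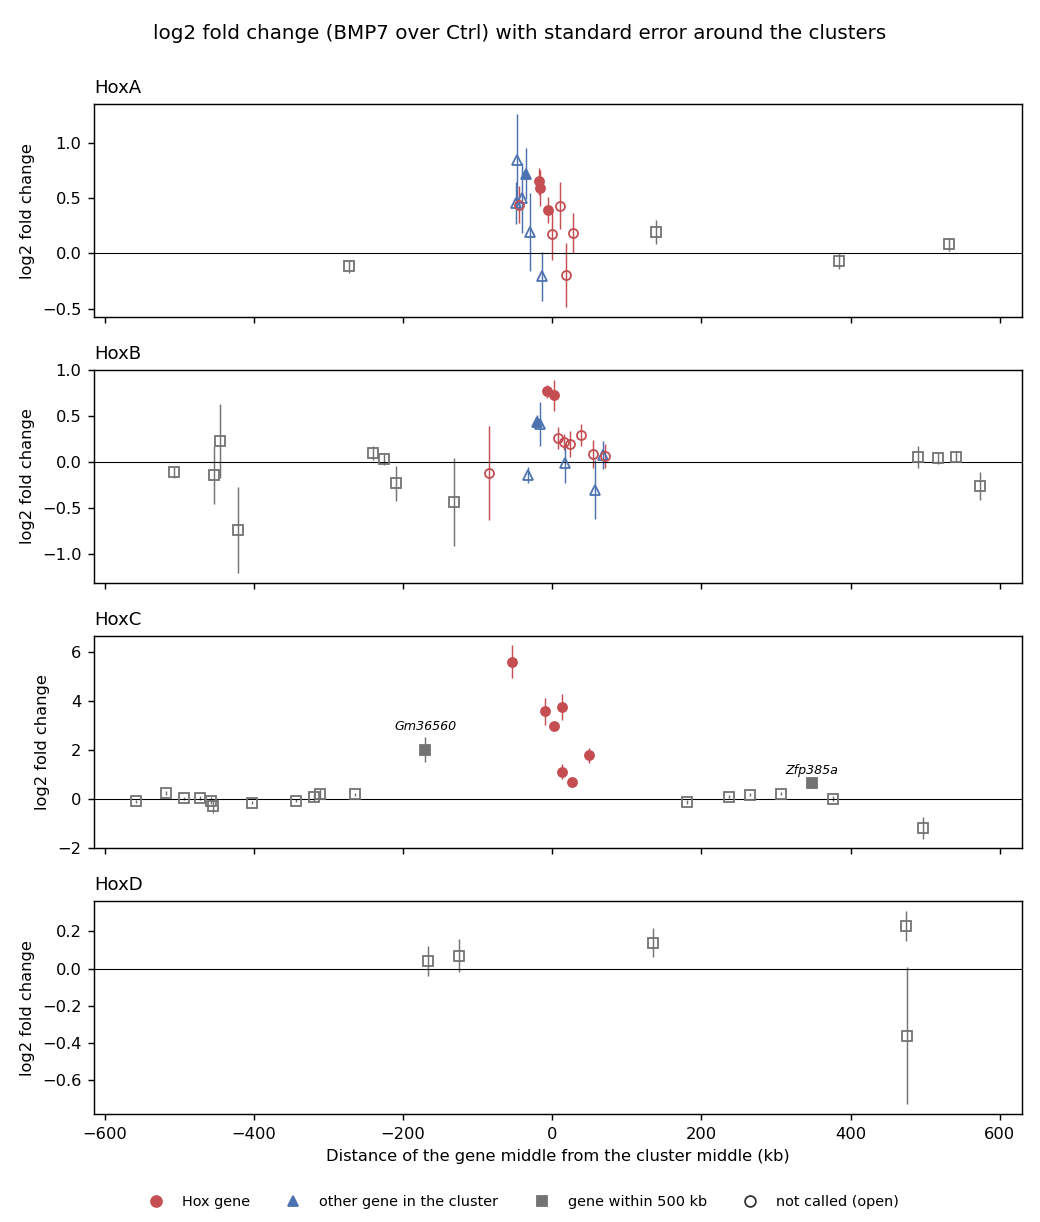
log2 fold change of BMP7 over Ctrl (bars are standard errors) of tested genes against the distance of the gene's middle from the middle of each cluster (kb). Red circles are Hox genes, blue triangles other genes inside the cluster, grey squares genes within 500 kb, and filled symbols were called. The grey squares lie near 0 on each side of HoxC except *Gm36560* (2.01) and *Zfp385a* (0.64) among the called genes and Nckap1l (-1.18), which was not called.

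The genes of proteins that work with Hox proteins or on their clusters were counted from lists. Of 9 cofactor genes, 9 were tested and 0 were called by edgeR or DESeq2 in either direction, where 11.4% of all genes tested were called by edgeR, and 2 were higher at an unadjusted p under 0.05. *Meis1*, a cofactor gene of the TALE class, was at 27.2, 21.8 and 28.4 CPM in Ctrl and at 26.7, 26.0 and 27.2 CPM with BMP7. Of 34 Polycomb complex genes, all tested, 1 was called higher and 3 lower, and DESeq2 called 1 higher and 2 lower. The chromobox genes *Cbx7* and *Cbx2* fell, with log2 fold changes of -0.48 (adjusted p = 0.00643) and -0.34 (adjusted p = 0.00626), and *Pcgf5* fell with -0.32 (adjusted p = 0.0375, all from edgeR). Over the 34 genes the median log2 fold change was 0.01, beside -0.01 over all genes tested. Of 26 Trithorax and H3K27 demethylase genes, all tested, 0 were called by edgeR or DESeq2 and 4 were higher and 2 lower at an unadjusted p under 0.05, with log2 fold changes from -0.22 to 0.22. Of 8 ParaHox and Evx genes, relatives of the Hox genes that include *Cdx2* and *Evx1*, 7 had 0 counts and none was tested.

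The sequences around the starts of called genes are shown because BMP signals reach DNA through Smad proteins, which bind motifs that can be searched in them. RefSeq's table (GRCm38.p6, a different build from that of the counts) held 24 promoters of 300 bases for 22 of the 39 genes, and of HoxC only that of *Hoxc4*. The called genes whose promoters are shown are *Hoxc4*, *Hoxb8*, *Hoxa3* and *Hoxa5*. The letters GGCGCC and CAGAC, given for Smad-bound sites, were searched on both strands, and matches of the 2 motifs can share at most 1 base. CAGAC, on either strand, is in capitals below. The promoters of *Hoxc4* at chr15:103034145-103034444 and of *Hoxb8* at chr11:96281655-96281954 lie on the plus strand, and those of *Hoxa3* at chr6:52213018-52213317 and of *Hoxa5* at chr6:52204538-52204837 on the minus strand.
*Hoxc4*: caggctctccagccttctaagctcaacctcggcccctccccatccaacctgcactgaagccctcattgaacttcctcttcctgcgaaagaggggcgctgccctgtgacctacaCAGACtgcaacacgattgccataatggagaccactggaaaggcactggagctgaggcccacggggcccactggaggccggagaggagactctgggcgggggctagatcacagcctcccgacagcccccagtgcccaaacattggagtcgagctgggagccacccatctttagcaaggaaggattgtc
*Hoxb8*: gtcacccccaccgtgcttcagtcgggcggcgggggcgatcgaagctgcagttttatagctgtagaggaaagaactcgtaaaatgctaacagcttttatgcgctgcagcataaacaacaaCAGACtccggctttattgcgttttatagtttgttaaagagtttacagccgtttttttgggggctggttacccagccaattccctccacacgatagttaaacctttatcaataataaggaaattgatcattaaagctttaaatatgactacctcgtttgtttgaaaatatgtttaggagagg
*Hoxa3*: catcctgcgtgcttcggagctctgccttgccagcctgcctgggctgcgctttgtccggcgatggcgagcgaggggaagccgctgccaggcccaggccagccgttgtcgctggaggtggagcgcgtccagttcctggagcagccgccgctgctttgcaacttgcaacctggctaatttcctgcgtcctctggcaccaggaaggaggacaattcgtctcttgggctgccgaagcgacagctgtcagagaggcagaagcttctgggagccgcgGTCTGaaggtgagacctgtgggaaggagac
*Hoxa5*: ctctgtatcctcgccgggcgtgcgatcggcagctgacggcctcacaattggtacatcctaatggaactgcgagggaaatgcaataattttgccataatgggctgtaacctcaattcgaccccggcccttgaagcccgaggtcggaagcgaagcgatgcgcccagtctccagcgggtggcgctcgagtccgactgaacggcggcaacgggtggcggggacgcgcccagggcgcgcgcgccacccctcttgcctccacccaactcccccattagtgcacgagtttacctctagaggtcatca
The promoters of *Hoxc4*, *Hoxb8* and *Hoxa3* hold CAGAC 1 time each and that of *Hoxa5* 0 times, and GGCGCC is in 0 of these 4. Of the 22 genes, 5 hold GGCGCC and 9 hold CAGAC, where 11.9% and 49.6% of all 32851 promoters of the table do. The Hox promoters with GGCGCC were those of *Hoxd13*, *Hoxd11*, *Hoxd3*, *Hoxd1* and *Hoxa10*. The HoxD genes among them had too few counts to be tested, and *Hoxa10* was tested and not called. A match is a description of the letters and not of binding. The CG dinucleotides numbered 9 in the *Hoxc4* promoter and 13 in the *Hoxb8* promoter, 20 in the *Hoxa3* promoter and 29 in the *Hoxa5* promoter, with a median of 14.5 over the Hox promoters and 7 over all.

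The clusters also carry microRNA genes whose targets include Hox transcripts. The mature sequences are given from RefSeq with the seed, which pairs with the target, in capitals. miR-196a comes from *Mir196a-1* next to *Hoxb9* and from *Mir196a-2* in HoxC, miR-196b from HoxA, and miR-10a and miR-10b from HoxB and HoxD.
miR-196a: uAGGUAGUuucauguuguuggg
miR-196b: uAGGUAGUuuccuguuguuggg
miR-10a: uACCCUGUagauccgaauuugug
miR-10b: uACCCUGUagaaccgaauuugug
On GRCm38.p6 the miR-196a sequence lies at chr11:96265187-96265208 (plus strand) and chr15:102973365-102973386 (plus), miR-196b at chr6:52230129-52230150 (minus), miR-10a at chr11:96317186-96317208 (plus) and miR-10b at chr2:74726074-74726096 (plus). The miR-196 pair shares the seed AGGUAGU and the miR-10 pair the seed ACCCUGU. Counts of poly(A) RNA over a microRNA gene measure the long transcript and not the mature RNA. *Mir196a-1* was at 3.80, 3.93 and 4.74 CPM in Ctrl and at 3.00, 7.16 and 6.06 CPM with BMP7, which overlapped. Its log2 fold change of 0.41 (standard error 0.24) was not called. It lies within the span of *Gm53* on the same strand, which was called higher (log2 fold change 0.44, standard error 0.07). *Mir196a-2*, *Mir196b* and *Mir10b* had 0 counts. All 85 bases of *Mir196b* are also exon bases of *Hoxa9*, so fragments over it fit both genes and could not be counted for it.

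An exact complement of the miR-196 seed, ACTACCT, stood in the 3′ untranslated region of 9 of 39 Hox genes and of 1283 of 21028 genes (6.10%) in GENCODE vM21, where G-U pairs were not searched. They include *Hoxa4*, *Hoxa5*, *Hoxa7*, *Hoxa9*, *Hoxb1*, *Hoxb6*, *Hoxb7* and *Hoxc8*. Sites of a called and a not called gene are shown with that complement in capitals, in DNA letters of the transcript.
*Hoxc8*, position 135: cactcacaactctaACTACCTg
*Hoxc8*, position 892: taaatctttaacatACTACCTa
*Hoxa7*, position 500: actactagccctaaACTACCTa
*Hoxb7*, position 168: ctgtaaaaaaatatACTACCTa
Positions count from 1 at the start of the region. Base by base, 12 of the 22 bases of miR-196a were complementary at each *Hoxc8* site and 14 at the *Hoxa7* and *Hoxb7* sites shown. Genes with a site were found among those called (such as *Hoxc8*, *Hoxa4* and *Hoxa5*), those not called and those at 0 counts (*Hoxb1*).

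Markers of the epithelial lineages moved between the groups as well. Of 9 tested luminal markers 4 were called lower and 0 higher, and of 7 tested basal markers 4 were called higher and 0 lower. Of all genes tested, 5.99% were called higher and 5.38% lower. The luminal *Krt8* (log2 fold change 0.09) and the basal *Krt5* (-0.03) and *Acta2* (-1.23) were not called. *Krt18* was at 51.1, 48.5 and 48.9 CPM in Ctrl and at 31.1, 27.1 and 35.7 CPM with BMP7, and the basal regulator gene *Trp63* was at 230, 244 and 240 CPM in Ctrl and at 368, 396 and 349 CPM with BMP7. Of 8 tested fibroblast markers 4 were called higher and 1 lower, and their sum was 115 to 127 CPM in Ctrl and 103 to 123 CPM with BMP7. The fibroblast gene called lower was *Col1a1*, at 65.1, 69.5 and 78.8 CPM in Ctrl and at 48.9, 58.1 and 52.6 CPM with BMP7. *Dcn*, called higher, was at 1.73, 0.737 and 1.08 CPM in Ctrl and at 1.74 CPM in BMP7 library 1, and at 4.44 and 4.90 CPM in BMP7 libraries 3 and 4. The part of these markers in the Hox values was not tested.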

How the data were processed

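RNA-sequencing libraries of HC11 cells with and without BMP7 (3 each) were analysed. The authors aligned read pairs with Subread 2.0.3 and counted fragments per gene on exons with featureCounts 2.0.1 without regard to strand, and deposited the raw counts. The study names mm10 and the header of the counts names mm39, and coordinates are those of the counts. Fragments fitting several genes or places were not counted. Fragments per library range from 14607938 to 23748970, and for genes with few counts the counting error dominates.

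Libraries were grouped by their labels. In R 4.3.3, edgeR 4.0.16 was run with its expression filter (15733 genes), TMM, the quasi-likelihood test and Benjamini-Hochberg adjustment. Calls required an adjusted p under 0.05 with over 1.2-fold change. Ratios of counts carry exact 95% counting intervals, except that against the floor, which is 3 counts. Libraries of one group differed by more than sampling noise (chi-square between 5.31 and 12.93 for each degree of freedom). DESeq2 1.42.0, other scalings, filters and thresholds, left-out libraries and a replicate block were alternatives. The test was checked on simulated counts. Overlaps used the deposited exon positions, and near-identical transcripts were searched with BLAST 2.17.0 at 95% identity over 100 bases.

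The Hox genes and the other lists were chosen with earlier results of these data known. A few genes, which stay in the counts of genes, are not reported here. Every other Hox gene is named, with values in every library for called genes, for the highest gene per length of each cluster and for uncalled genes of at least 1 CPM whose groups do not overlap. From other lists up to 4 called genes are named, plus non-Hox genes called inside a cluster. Genes named outside that rule (*Gm36560* and other flanking genes, *Meis1*, *Hotairm1*, *Mir196a-1* and the markers) were chosen after their values were seen.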

Additional observations from a re-analysis of the deposited data

How the results depend on the processing

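Under a fold change of 2, 252 genes were called higher and 112 lower, with 6 Hox, 0 HoxA, 0 HoxB, 1 paralog 1 to 4, 2 paralog 5 to 8, 0 Polycomb higher and 0 Polycomb lower. With at least 10 counts in every library, 4 HoxC and 2 paralog 9 to 13 genes were called higher. Upper-quartile scaling gave 0 Polycomb genes higher, and the adjusted p alone 2 Polycomb genes higher and 1 Trithorax gene lower. BMP7 library 1 alone against Ctrl, an alternative chosen after seeing the data in which the lone library is assumed to vary like the others, gave 8 Hox, 2 HoxA, 1 HoxB, 1 paralog 5 to 8 and 0 Polycomb genes higher, and 4 Trithorax genes lower. Leaving out 1 library at a time put genes called lower between 563 and 902, HoxA calls between 2 and 4, HoxB calls between 1 and 3, paralog 5 to 8 calls between 2 and 5, Polycomb genes higher between 0 and 1 and Trithorax genes higher between 0 and 2. *Hoxb13* then lay between -0.49 and 0.21 (0.02, 0.21 and 0.0 without Ctrl library 1 or 2 or BMP7 library 1), and *Hoxb3* between 0.0 and 0.18 (0.0 without Ctrl library 2). Why these values moved was not tested, beyond the fewer genes or libraries that the filters and left-out libraries leave. The direction of the other 23 tested Hox genes held in every fit. 

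The replicate block used the column numbers that both groups share (1 and 3), which leaves 1 residual degree of freedom. The deviations of libraries of the same number had r = -0.014 for number 1 and 0.116 for number 3. Libraries of different numbers gave r between -0.082 and 0.096. So few libraries cannot decide whether the numbers mark pairs, and they were not taken as pairs. With the replicate block, 1152 genes were called higher and 959 lower, with 12 Hox, 4 HoxA, 2 HoxB and 6 HoxC genes, and 1 Trithorax gene in each direction. Under it *Hoxb13* was at 0.37 and *Hoxb3* at -0.07. Depth limits the genes with few counts, above all *Hoxc13*, *Hoxc12*, *Hoxc11*, *Hoxc10*, *Hoxc8* and HoxD.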
